A study of Mus musculus with 5 samples.

Results

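Genes for splicing factors and heterogeneous nuclear ribonucleoproteins were followed in mouse fibroblasts that overexpress the receptor ERBB2. The genes were taken by symbol, from probes that map to 1 symbol only: the Snrp genes (snRNP proteins), the Lsm genes (like-Sm proteins), the Sf3a and Sf3b genes (subunits of the U2 snRNP), the Prpf genes (pre-mRNA processing factors), the Srsf genes (SR proteins) and the Hnrnp genes. There were 61 such genes, on 77 of the 20205 probes of the array. By subfamily these were 10 Snrp, 11 Lsm, 7 Sf3a or Sf3b, 10 Prpf, 7 Srsf and 16 Hnrnp genes. A further 17 probes with several symbols, at least 1 of them of these families, were left out.

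Pre-mRNA splicing removes introns in the nucleus. The spliceosome is built for each intron from the U1, U2, U4, U5 and U6 snRNPs, in which small RNAs sit in rings of Sm or like-Sm proteins, and the Prpf proteins carry it through its rearrangements. SR proteins mostly favour the use of the exons they bind, while hnRNP proteins coat the transcript and often keep splice sites from being used, so that the balance between them bears on alternative splicing.

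The transfected cells were NIH3T3 fibroblasts that constitutively overexpress human ERBB2 (HER-2/NEU, a receptor tyrosine kinase) under the cytomegalovirus promoter, and they were set against the untransfected parental NIH3T3 line. Both were kept in the same serum-containing medium, and neither a vector-only control nor whether the transfected cells are 1 clone or a pool is given in the labels. Total RNA was hybridised to 5 two-colour cDNA arrays, each holding both cell lines. Arrays A1, A2 and A3 came from preparation A and arrays B1 and B2 from preparation B, with Erbb2 cDNA in Cy3 on A1, A2 and B1 and in Cy5 on A3 and B2. Whether the preparations are separate cultures is not stated, so the p-values measure a spread that may be technical. In RNA of whole cultures, a changed share of cells and a changed amount of RNA per cell cannot be told apart.

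Each value is a log2 ratio with Erbb2-transfected cells over NIH3T3 cells, and a positive one means more RNA in the transfected cells. Values of the A arrays (A1, A2, A3) and of the B arrays (B1, B2) stand in the order of their numbers. The direction is likely and not settled: the sources used here do not name the numerator, and Cy5 was put on top since the labels list it first throughout. Under the other reading each rise below would be a fall of equal size. A mean is that of the 2 preparations, with arrays of each dye orientation weighted equally within a preparation, and ± is the SD of the 2. A gene was tested where both preparations had a value in both orientations, and called at a Benjamini-Hochberg adjusted p under 0.05 over all 4892 tested features (limma).

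Between 5368 probes (on A1) and 17463 probes (on B1) had a value per array, and 46 (on A3) to 67 (on B1) of the 77 splicing probes did. No probe carried the symbol Erbb2 alone, so the transgene or its mouse counterpart was not checked. The fibroblast label was set against 12 marker genes, of which 10 had a value, 7 were tested and 3 fell: Col1a1 (-4.93), Fn1 (-4.61) and Col1a2 (-3.97). The other 4 had no call: Col3a1 averaged 0.51, Vim 0.47, S100a4 -0.01 and Fap -0.60. Of 30 markers of epithelium, endothelium, leukocytes, adipocytes and skeletal muscle, 17 had a value and 3 were tested, all without a call (Krt19 at 0.19, Tnnt3 at 0.21 and Flt1 at 0.16). Ratios give no level in either cell line, so none of these markers can be called present or absent, and their part in the results below was not tested.

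Of the 61 genes, 34 could be tested and 3 were called, all higher in Erbb2-transfected cells: Snrpf, Snrpa and Hnrnpc. The 3 calls are 8.82% of the tested splicing genes, against 6.79% of all tested features called in either direction and 2.25% called higher. No splicing gene was called lower, against 4.54% of all features. The median over the 34 genes was 0.10, against -0.02 over all features. A single sign on every array with a value was shown by 11 of the 34 genes (32.4%), against 24.3% of all features. The remaining 27 genes could not be tested, and 2 of them, Snrpb2 and Hnrnpa3, had no value on any array.

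The 250 bases before an annotated transcript start of each of the 3 called genes are shown, since these are the splicing genes called higher. They are from RefSeq on GRCm38.p6, all from the minus strand, at chr10:93589659-93589908 for Snrpf, chr7:27196272-27196521 for Snrpa (the first of its 2 listed starts) and chr14:52104022-52104271 for Hnrnpc, whose window reaches into the outermost bases of the gene. Capitals mark matches on either strand to CCAAT (the CCAAT box, bound by NF-Y), CACGTG (the E-box that Myc and related factors bind), GGGCGG (the GC box, bound by Sp1 and its relatives), TATAAA (the TATA box) or CCGGAAG (an ETS-family core). No motif contains another, although neighbouring matches can share bases.
Snrpf: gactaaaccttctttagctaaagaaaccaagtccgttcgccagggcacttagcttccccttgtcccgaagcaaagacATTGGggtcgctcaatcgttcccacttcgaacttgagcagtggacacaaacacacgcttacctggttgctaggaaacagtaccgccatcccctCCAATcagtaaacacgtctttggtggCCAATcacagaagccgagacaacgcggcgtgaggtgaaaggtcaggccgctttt
Snrpa: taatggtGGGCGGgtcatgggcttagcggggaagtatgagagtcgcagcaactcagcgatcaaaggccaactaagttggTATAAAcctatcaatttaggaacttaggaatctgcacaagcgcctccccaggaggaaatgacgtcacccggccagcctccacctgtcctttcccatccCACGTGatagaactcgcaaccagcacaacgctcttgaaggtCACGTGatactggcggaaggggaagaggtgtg
Hnrnpc: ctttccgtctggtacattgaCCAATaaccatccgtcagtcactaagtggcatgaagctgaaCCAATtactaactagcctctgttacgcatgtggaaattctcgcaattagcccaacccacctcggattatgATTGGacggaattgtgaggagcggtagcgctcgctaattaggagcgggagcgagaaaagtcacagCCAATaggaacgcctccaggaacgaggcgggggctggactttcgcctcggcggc

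No motif stood in the windows of all 3 genes. Snrpf held 3 CCAAT matches and no other. Hnrnpc held 4 CCAAT matches and no other. Snrpa held 2 E-box matches, 1 GC box match and 1 TATA match, with no CCAAT. The CCAAT box occurred in 33.8% of all 32851 promoter windows of this length, the GC box in 32.7%, the TATA box in 12.4%, the ETS core in 6.91% and the E-box in 6.02%. In the 67 windows of the 53 splicing genes with an entry the shares were 46.3%, 59.7%, 5.97%, 31.3% and 10.4% in the same order. In the 21263 windows of protein-coding genes they were 35.4%, 42.6%, 11.6%, 8.98% and 6.63%. The ETS core thus stood in 21 of the 67 windows of the splicing genes but in none of the 3 shown. These matches describe the letters of a window, not a bound site.

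The Sm proteins of the core snRNPs held the largest rise. Snrpf (gene at chr10:93583029-93589658), which encodes the Sm F protein of the ring on U1, U2, U4 and U5, had log2 ratios of 2.18, 0.78 and 1.51 on the A arrays and of 0.92 and 0.84 on the B arrays. It was above 0.7 on every array, in both dye orientations. Snrpf averaged 1.19 ± 0.44 (SD, n = 2 preparations; 95% interval 0.70 to 1.68), a 2.28-fold higher level in Erbb2-transfected cells (limma, adjusted p = 0.00962). The call was kept under 15 of 16 other ways of processing, and was lost (limma, adjusted p = 0.0710) where features with fewer values entered the test. Among the 16 is a looser threshold of 0.1 on the same fit, under which no call can be lost.

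Snrpa (gene at chr7:27187006-27196271) encodes the A protein of U1, which binds a loop of the U1 RNA. Its log2 ratios were 0.74, 0.81 and 1.17 on the A arrays and 1.60 and -0.04 on the B arrays. The arrays of preparation B thus lay at the high and the low end of its 5 values. Snrpa averaged 0.87 ± 0.14 (SD, n = 2 preparations; 95% interval 0.42 to 1.32), 1.83-fold higher (limma, adjusted p = 0.0277). The small SD of the 2 preparation means does not show the gap between B1 and B2. The call was kept under 11 of 16 other ways of processing, the looser threshold of 0.1 again among them. Without B1 the mean was 0.46 and the call was lost (adjusted p = 0.583), and without A3 the call was lost as well, at a mean of 0.78 (adjusted p = 0.169).

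The other Sm genes did not pass the test. Snrpe (Sm E) had 1.09, -1.02 and 1.11 on the A arrays and 0.02 and 0.51 on the B arrays, with a mean of 0.42 ± 0.22 (SD, n = 2 preparations; adjusted p = 0.254). A2 went against the other arrays of its preparation. By the average of its 2 probes, Snrpd3 (Sm D3) was above 0 on all 5 arrays, between 0.07 and 0.86. Its mean was 0.32 ± 0.20 (SD, n = 2 preparations; adjusted p = 0.402). The only probe with a value on A1 lay below 0 on A2 (-0.03) and on B2 (-0.05). Snrpb (Sm B) lay near 0, at 0.05, and its 2 probes differed by up to 0.64 on 1 array.

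Snrpa1, a protein of the U2 snRNP, was the lowest of the tested Snrp genes. It was below 0 on all 5 arrays, between -0.58 and -0.08, with a mean of -0.22 ± 0.05 (SD, n = 2 preparations; adjusted p = 0.561). Among untested Snrp genes, Snrpd1 (Sm D1) had values on 4 arrays, all above 0: 0.66, 0.44, 0.27 and 1.02 on A1, A2, B1 and B2. Snrpg (Sm G) was at -0.94 on A2 and at 1.29 on A1, both with Erbb2 cDNA in Cy3. Snrpc, a U1 protein, had -0.27 on A1 and -0.07 on A2 and no other value. The median of the 6 tested Snrp genes was 0.37, with 2 called higher and 0 lower. It lay between 0.19 and 0.55 over 18 alternatives, some of which, such as the threshold of 0.1, cannot move a median.

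**Figure D1:**
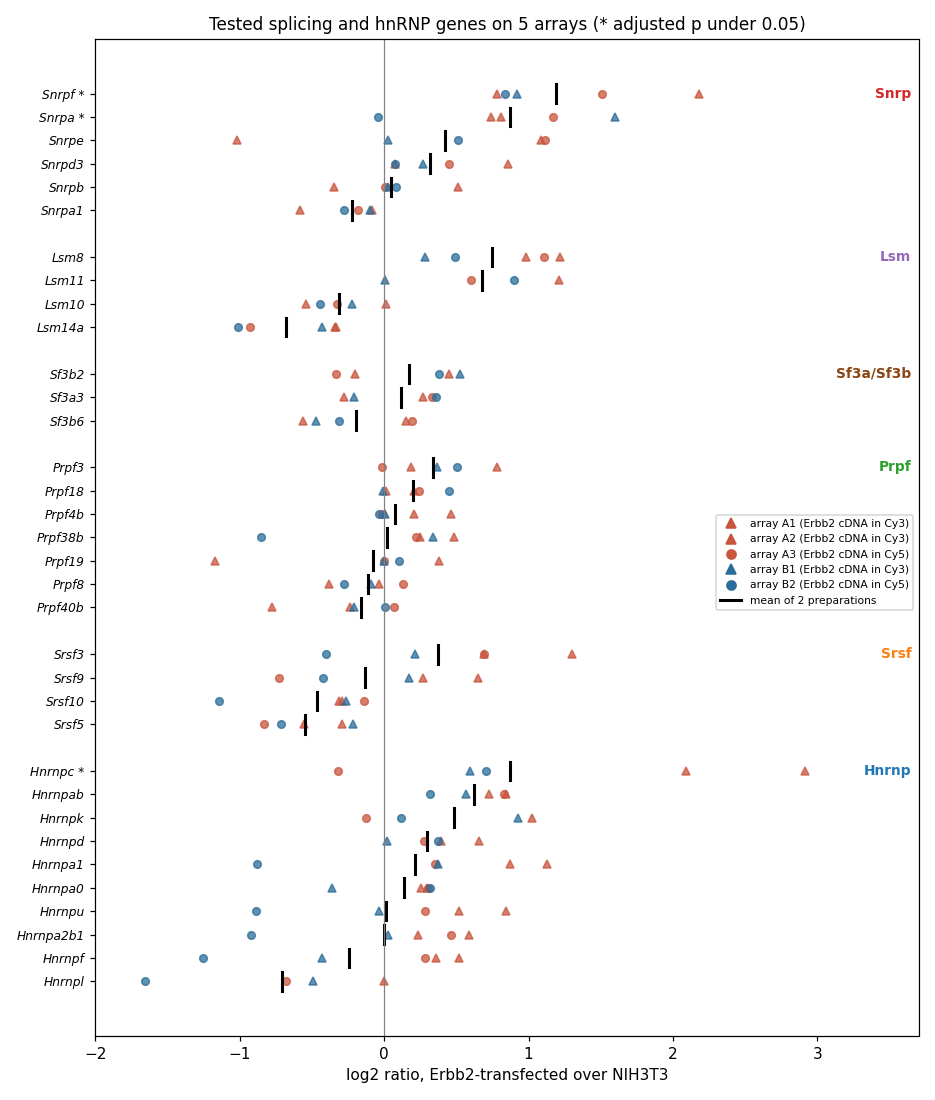
Log2 ratio of Erbb2-transfected over NIH3T3 cells (x axis) for the 34 tested splicing and hnRNP genes (y axis, by subfamily and then by mean), with 1 point per array and a black bar at the mean of the 2 preparations. The 5 points of Snrpf all lie right of 0, while those of Hnrnpc spread from -0.32 on A3 to 2.91 on A1.

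The like-Sm genes lay on both sides of 0, without a call. Lsm8, part of the ring that binds U6 RNA in the nucleus, had 0.98, 1.22 and 1.11 on the A arrays and 0.28 and 0.49 on the B arrays. All 5 values were above 0, and those of preparation A lay above those of preparation B. Its mean was 0.74 ± 0.51 (SD, n = 2 preparations; adjusted p = 0.0805). Lsm11, a U7 snRNP protein of histone mRNA processing, had no value on A1, 1.21 on A2, 0.60 on A3, 0.01 on B1 and 0.90 on B2. Its mean was 0.68 ± 0.32 (SD, n = 2 preparations; adjusted p = 0.0857), and its 2 probes differed by 1.34 on the array where they were farthest apart. The value on A2 came from 1 probe only and that on A3 from the other only. Neither probe thus had both dye orientations in preparation A. On B1 the probes were at 0.19 and -0.18, and on B2 at 0.23 and 1.57.

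Lsm10, the partner of Lsm11 in the U7 ring, did not follow it. Its values lay between -0.54 and 0.01, with a mean of -0.31 ± 0.03 (SD, n = 2 preparations; adjusted p = 0.394). Lsm14a, a cytoplasmic protein of processing bodies that takes part in translational repression, was the lowest of the tested Lsm genes. It had -0.34, -0.33 and -0.93 on the A arrays and -0.43 and -1.01 on the B arrays. All 5 values were below 0, and the arrays with Erbb2 cDNA in Cy5 (A3 and B2) were the lowest in each preparation. Its mean was -0.68 ± 0.06 (SD, n = 2 preparations; adjusted p = 0.0728). The median of the 4 tested Lsm genes was 0.18, but this turned below 0 in 7 of 18 alternatives, down to -0.37 without B1. Of the 7 untested Lsm genes, which include most of the rings that bind U6 or decaying mRNA, none had values on more than 3 arrays. Lsm4 had 0.34 on B1 and 0.54 on B2, Lsm3 had -0.08 and -0.45 there, and Lsm1 of the mRNA decay ring had 0.36 on B1 alone. Lsm6 had -0.19 on A2 and -0.14 on B2. Lsm2, Lsm7 and Lsm14b had values on both sides of 0.

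The 3 tested Sf3a and Sf3b genes, for subunits of the U2 snRNP, lay near 0. Sf3b2 averaged 0.17 ± 0.39 (SD, n = 2 preparations; adjusted p = 0.695). Sf3a3 averaged 0.12 ± 0.06 (SD, n = 2 preparations; adjusted p = 0.781), and its 2 probes differed by at most 0.43. Sf3b6, the subunit next to the branch-point adenosine, averaged -0.20 ± 0.27 (SD, n = 2 preparations; adjusted p = 0.629). Each of the 3 had arrays on both sides of 0. Of the 4 untested genes of this subfamily, Sf3b5 was lowest on A1, at -1.11, and lay between -0.30 and 0.00 on its other 3 arrays. Sf3a1 had 0.22 on B1 and 0.39 on B2, and Sf3a2 and Sf3b3 lay on both sides of 0.

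The 7 tested Prpf genes also lay near 0, with a median of 0.02 and means between -0.16 and 0.34. Prpf3, of the U4/U6 snRNP, was highest, at 0.34 ± 0.14 (SD, n = 2 preparations; adjusted p = 0.363), and Prpf40b, related to a U1 factor of yeast, was lowest, at -0.16 ± 0.08 (SD, n = 2 preparations; adjusted p = 0.699). Prpf8, the large U5 protein that holds the catalytic RNAs, averaged -0.11, the kinase Prpf4b 0.07 and the second-step factor Prpf18 0.20. The 95% interval of Prpf8 ran from -0.56 to 0.34, so changes smaller than that were not resolved. Prpf38b averaged 0.02, with 4 arrays between 0.22 and 0.49 and B2 at -0.85. Of its 3 probes, a pair agreed within 0.19 on every array, and both were below -1 on B2. The untested Prpf31, a protein of the U4/U6 snRNP, had 4 values above 0, between 0.21 and 0.54, and the untested Prpf6 and Prpf38a lay on both sides of 0.

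Of the 4 tested SR protein genes, 3 had a mean below 0, and none was called. Srsf5 had -0.55, -0.30 and -0.83 on the A arrays and -0.22 and -0.72 on the B arrays. By the average of its 2 probes it was below 0 on all 5 arrays, with a mean of -0.55 ± 0.11 (SD, n = 2 preparations; adjusted p = 0.143). Its 2 probes differed by up to 1.44, on B2, where 1 of them lay at 0.01. That probe, with a value on all 5 arrays, averaged -0.37 alone. The other lay at 0.19 on A2 and had no value on B1. Srsf10, an SR protein known to repress splicing when dephosphorylated, had -0.29, -0.32 and -0.14 on the A arrays and -0.26 and -1.14 on the B arrays. It was likewise below 0 on every array, with a mean of -0.46 ± 0.34 (SD, n = 2 preparations; adjusted p = 0.228).

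Srsf3, the smallest SR protein, was the highest of the 4 and split by preparation. It had 1.30, 0.69 and 0.69 on the A arrays and 0.21 and -0.40 on the B arrays, with a mean of 0.37 ± 0.66 (SD, n = 2 preparations; adjusted p = 0.405). Its 2 probes, each with a value on all 5 arrays, gave means of 0.42 and 0.33 and ranked B2 lowest in both cases. Srsf9 crossed 0 with the dye. It was at 0.65, 0.27 and 0.17 on the arrays with Erbb2 cDNA in Cy3 and at -0.73 and -0.42 on those with it in Cy5, with a mean of -0.13. The median of the 4 genes was -0.30, and it lay between -0.48 and -0.01 over the 18 alternatives. Some of these, such as the threshold of 0.1 and a robust variance estimate, cannot move a median. Among untested genes, Srsf11 had 1.40 on B1 and -1.25 on B2, the widest gap within preparation B of any splicing gene with both values. Srsf6 ran from -0.65 on A1 to 0.77 on A3, and Srsf4 had a value only on B1, at 0.14.

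**Figure D2:**
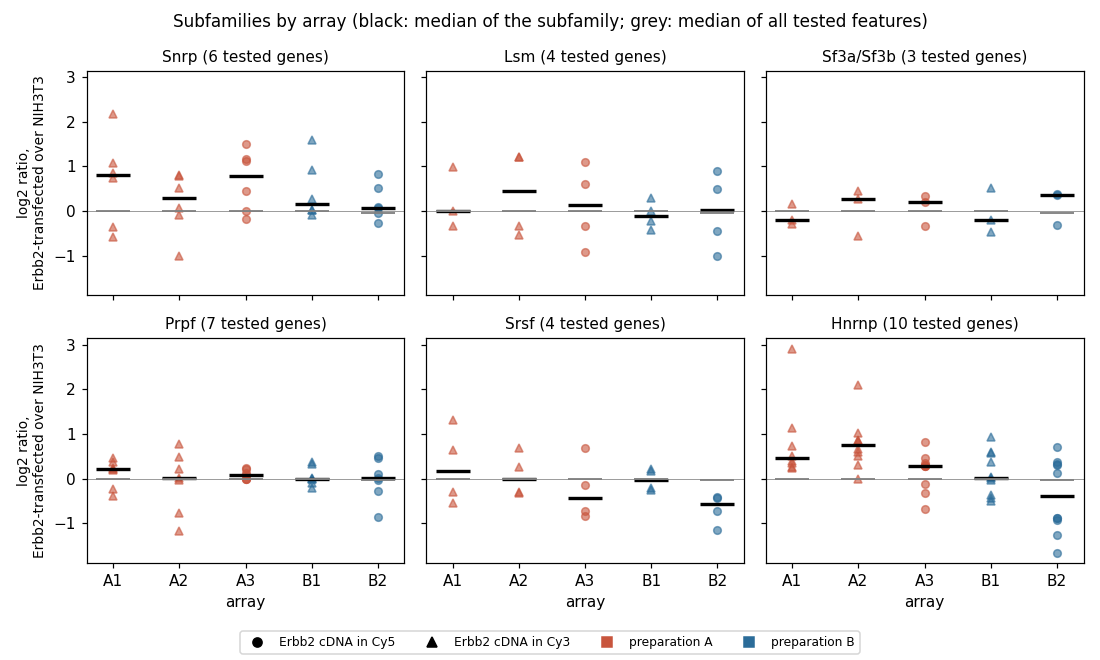
Log2 ratio of Erbb2-transfected over NIH3T3 cells (y axis) of the tested genes of each subfamily on the 5 arrays (x axis), with a black bar at the subfamily's median and a grey bar at the median of all tested features on that array. The Hnrnp median was 0.75 on A2 and -0.38 on B2, whereas that of the Prpf genes stayed between -0.00 and 0.21.

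The hnRNP genes gave 1 call, Hnrnpc (gene at chr14:52073377-52104039), whose protein binds uridine-rich stretches of pre-mRNA. The gene's log2 ratios were 2.91, 2.09 and -0.32 on the A arrays and 0.59 and 0.71 on the B arrays. A3, the only array of preparation A with Erbb2 cDNA in Cy5, was below 0, and the other 4 were above. The mean was 0.87 ± 0.31 (SD, n = 2 preparations; 95% interval 0.40 to 1.34), 1.83-fold higher (limma, adjusted p = 0.0337).

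The probes of Hnrnpc did not match each other. Probe a had 0.76, 0.52, 0.18, 0.90 and 0.71 on A1, A2, A3, B1 and B2, all above 0. Probe c had 5.07, 3.67, -0.82 and 0.70 on A1, A2, A3 and B1 and none on B2, and so carried the high values of A1 and A2. Probe b had a value only on B1, at 0.17. Probe c exceeded probe a by 1.57 on average over their 4 shared arrays, and by 4.31 where they were farthest apart. With probe a alone, Hnrnpc averaged 0.61 and was not called (adjusted p = 0.0672 with only probes measured in both dyes of both preparations, 0.0800 with each probe as its own feature). Hnrnpc was called under 9 of 16 other ways of processing, the looser threshold of 0.1 among them. It was not called without B1 (limma, adjusted p = 0.122) or without B2 (0.0732), after equal scaling of the arrays (0.0816), or with 5 arrays and a dye term (0.0507). Without A3, with dyes no longer balanced in preparation A, its mean was 1.58.

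**Figure D3:**
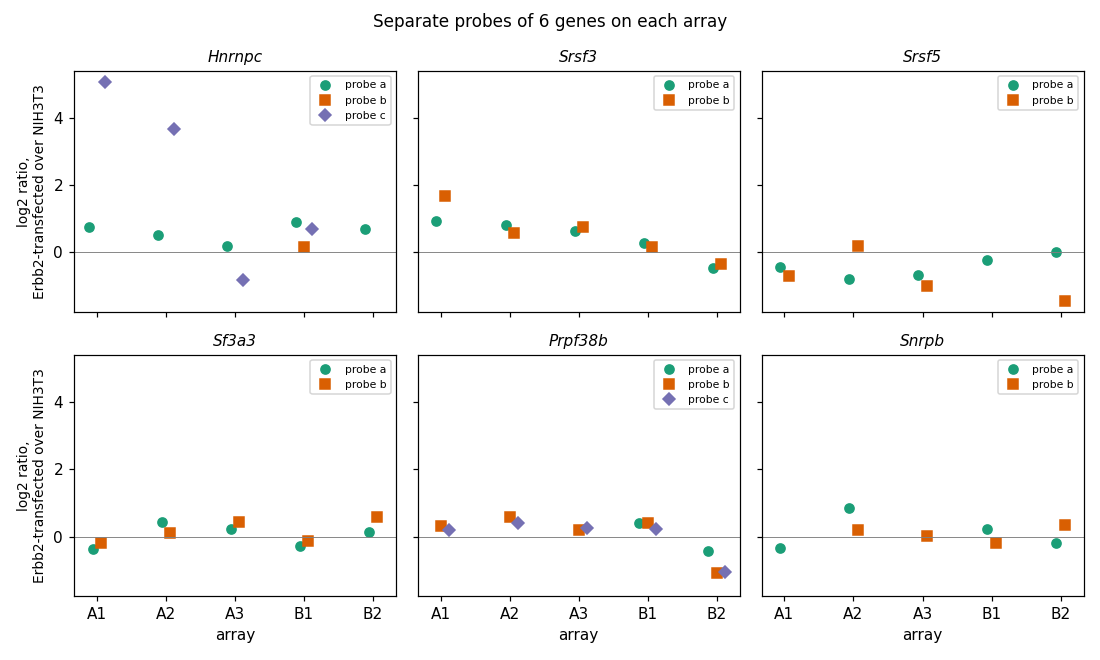
Log2 ratio of Erbb2-transfected over NIH3T3 cells (y axis) of each probe on the 5 arrays (x axis), for 6 genes with more than 1 probe. Probes of Srsf3 and Prpf38b follow each other across arrays, while probe c of Hnrnpc stands at 5.07 on A1, where probe a is at 0.76.

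Of the other hnRNP genes, Hnrnpab, which binds AU-rich and single-stranded sequences, was the most even. It had 0.73, 0.85 and 0.83 on the A arrays and 0.57 and 0.32 on the B arrays. All 5 values were above 0, with a mean of 0.62 ± 0.26 (SD, n = 2 preparations; adjusted p = 0.106). It passed the threshold with 5 arrays and a dye term (limma, adjusted p = 0.0417), a fit that counts arrays of the same preparation as replicates. Hnrnpk, which binds cytidine-rich sequence, averaged 0.49 ± 0.05 (SD, n = 2 preparations; adjusted p = 0.184) over 4 arrays, with A3 and B2 lowest, at -0.12 and 0.12. Hnrnpd, a binder of AU-rich elements in mRNA, was above 0 on all 5 arrays, between 0.02 and 0.66. The untested Hnrnpul1 had 0.82 on A3, 0.27 on B1 and 0.91 on B2, again all above 0.

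Hnrnpl, whose protein binds CA repeats, lay at the other end. It had no value on A1, -0.00 on A2, -0.68 on A3, -0.49 on B1 and -1.66 on B2. No array was above 0, and the mean was -0.71 ± 0.52 (SD, n = 2 preparations; adjusted p = 0.0970). The 16 Hnrnp genes thus held both the lowest mean among the 34 tested splicing genes and 1 of the 3 calls in the higher direction.

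Several hnRNP genes had higher ratios in preparation A than in preparation B, although none passed the test of that difference. Hnrnpf, a binder of guanine-rich tracts, had 0.36, 0.52 and 0.28 on the A arrays, against -0.43 and -1.25 on the B arrays. Hnrnpa1, which opposes SR proteins at many exons, had 1.13, 0.87 and 0.35 on the A arrays, against 0.37 and -0.88 on the B arrays. Hnrnpu, a nuclear scaffold protein, had 0.52, 0.85 and 0.28 on the A arrays, against -0.03 and -0.89 on the B arrays. Hnrnpa2b1 had the same shape, with 0.24, 0.59 and 0.47 against 0.03 and -0.92. In each of these 4 genes B2 was the lowest array, and their means over both preparations, between -0.24 and 0.21, were smaller in size than the mean of either preparation. The untested Hnrnpm had 1.46, 2.65 and 0.43 on the A arrays, against -1.49 on B2. The untested Hnrnpdl went the other way, with -1.25 on A1 and 0.08 on A2, against 0.12 on B1 and 1.60 on B2. Hnrnpll was lowest on B1, at -0.28, and highest on B2, at 0.92, and Hnrnpul2 had a value only on B1, at 0.32.

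Over the 10 tested Hnrnp genes the median was 0.45 in preparation A and -0.14 in preparation B, and 9 of the 10 were higher in A than in B. Hnrnpc is among the 9 by the average of its probes (1.09 against 0.65). Its probe a alone went the other way, at 0.41 in A and 0.81 in B. Over all 34 tested splicing genes 24 were higher in A (70.6%), against 50.2% of all features. By array, the Hnrnp median was 0.46 on A1 (8 of 8 values above 0), 0.75 on A2 (9 of 10), 0.28 on A3 (7 of 10), 0.02 on B1 (6 of 10) and -0.38 on B2 (5 of 10). The median over both preparations was 0.17, and it turned to -0.10 without B1. The genes share their arrays, so they are not independent views of the preparations.

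Tested gene by gene, no difference between preparations passed the threshold among the splicing genes. In limma on 5 arrays with dye orientation as a covariate, 0 of 34 splicing genes were called for preparation, against 0.0204% of all features, a single one. The largest fitted difference of preparation A minus B was 1.15 for Hnrnpf (adjusted p = 0.609). At an unadjusted p under 0.05 there were 4 splicing genes, all with A above B (Hnrnpf, Hnrnpu, Srsf3 and Hnrnpa1), or 11.8% of the 34, against 6.75% of all features. Both B arrays also held more values than any A array, and this cannot be told apart from preparation.

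**Figure D4:**
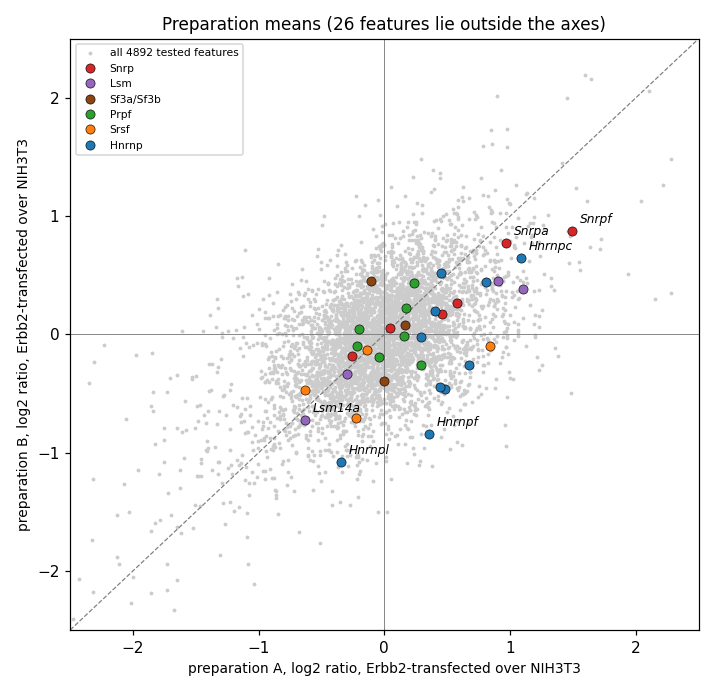
Mean log2 ratio of Erbb2-transfected over NIH3T3 cells in preparation A (x axis) and preparation B (y axis), with a coloured point for each of the 34 tested splicing genes, grey points for all 4892 tested features (26 lie outside the axes) and a dashed line where the preparations are equal. The Hnrnp genes lie to the right of the dashed line in 9 of 10 cases, with Hnrnpf farthest from it. Hnrnpc lies there by the average of its probes, but not by its probe a alone.

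The dye orientation was tested on the same arrays. No splicing gene of 34 had a dye effect past the threshold, against 0.593% of all features. At an unadjusted p under 0.05 there were 5 (14.7%), against 13.2% of all features. These were Hnrnpc, Srsf9, Hnrnpa1, Hnrnpk and Hnrnpl, each with a fitted ratio that was lower with Erbb2 cDNA in Cy5. For Hnrnpc this held in preparation A only. In preparation B it was at 0.59 on B1 (Cy3) and 0.71 on B2 (Cy5), where probe c had no value. Without array A1, Snrpe passed the threshold for a dye effect (adjusted p = 0.0456), and without A2, Hnrnpc did (adjusted p = 0.0400). For the 3 called genes the fitted dye coefficient, which is 0.5 of the difference between orientations, was -0.01 for Snrpf, -0.24 for Snrpa and -0.78 for Hnrnpc.

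Other genes of the splicing pathway outside these symbol families were read from 5 lists, and 1 of their 51 tested genes was called, higher (1.96%, near the 2.25% of all features called higher). The muscleblind-like regulator Mbnl2, which steers alternative exons and is best known from myotonic dystrophy, had 2.02, 1.41 and 0.61 on the A arrays and 1.04 and 0.85 on the B arrays. It was above 0 on every array and rose, with a mean of 1.05 ± 0.15 (SD, n = 2 preparations; limma, adjusted p = 0.0112). The lowest of the 16 tested RNA-binding regulators was the polypyrimidine tract binder Ptbp3, at -0.26, and the median of that list was 0.06.

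Of 11 tested genes of other snRNP proteins and U2 auxiliary factors none was called. The branch-point binder Sf1 was highest, with a mean of 0.69 ± 0.16 (SD, n = 2 preparations; adjusted p = 0.0695) and all 5 arrays above 0, and the minor-spliceosome gene Snrnp25 was lowest, at -0.25. Of 7 tested genes for the SMN complex and snRNP assembly none was called either. These ran from the snRNP import adaptor Snupn, at -0.67 ± 0.67 (SD, n = 2 preparations; adjusted p = 0.138), to Wdr77, a partner of the methyltransferase that modifies Sm proteins, at 0.64 ± 0.28 (SD, n = 2 preparations; adjusted p = 0.102).

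The 6 tested genes of the Prp19 complex and the catalytic steps ran from Srrm2 (-0.52), a scaffold of nuclear speckles, to the helicase Ddx41 (0.46). The 11 tested genes for SR protein kinases, the exon junction complex and mRNA export ran from the cap-binding Ncbp2 (-0.30) to the helicase Ddx39a (0.40). Neither list had a call, and their medians were 0.01 each. Like these hnRNP genes, Ddx39a was high in preparation A, at 1.06, 0.71 and 1.00, against -0.11 and -0.19 in preparation B.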

How the data were processed

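RNA of Erbb2-transfected and NIH3T3 cells was measured on 5 two-colour cDNA arrays. Per the labels, the authors scanned them with a GenePix 4000A, read the images with GenePix Pro 3.0, subtracted background from mean spot intensities and scaled each array to a median ratio of 1. The deposited values are log2 ratios, as the values themselves show: 12.4% (B1) to 41.7% (A2) of them matched, within 1e-06, a ratio of 2 whole numbers of at most 200 after log2 and 1 shared offset, against 1.05% to 1.38% with the offset moved and at most 1.87% under a natural log and 3.05% under log10. The numerator, and the rule for empty values, are not given in the sources used here. Arrays of opposite dye orientation correlated below 0 across probes (r from -0.542 to -0.174), and those of the same orientation above 0 (0.451 to 0.519), so the 3 arrays with Erbb2 cDNA in Cy3 were turned.

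Genes were named from the platform annotation, which gave 11723 probes 1 symbol, 806 several and 7676 none. Of the 1-symbol probes 11590 were found in the GRCm38.p6 gene table, which changed 0 symbols. Probes of a gene were averaged, other probes stayed separate (18151 features). The 2 preparation means were tested against 0 with limma 3.58.1 in R 4.3.3 (prior degrees of freedom 10.2, residual 1). Dye and preparation effects were fitted with limma on 5 arrays. The test of the preparation means and the dye fit were tried on simulated ratios that held no difference between preparations. The other procedures were not tried on simulated data. The number of arrays limits the precision. cDNA probes can bind related transcripts, and several hnRNP genes have close paralogs or pseudogenes, so their ratios are uncertain to that extent.

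Named are all called splicing genes, the highest, lowest and 2 nearest 0 of each subfamily, untested genes with 3 or more arrays of 1 sign and a mean of 0.5 or more in size, genes whose probes differ by over 1, and the called, highest and lowest genes of the other lists. Further genes were named after their values were seen. The genes and lists were chosen with earlier results of these data known. Promoters were searched with Python 3.11.15 and figures drawn with matplotlib 3.10.9.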

Additional observations from a re-analysis of the deposited data

Results flagged for a closer look

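Among the 42 splicing genes with values on 4 or 5 arrays, 4 had 1 array far from the rest. Independent values of a single normal spread meet this criterion in about 1 group of 20, but these arrays differ in dye and preparation. The share of all features that meet it is not given here, so whether 4 of 42 is unusual was not tested. Hnrnpa0, an hnRNP of the A family, was at -0.36 on B1, against 0.26 to 0.32 on the other 4 arrays. Prpf19, the ubiquitin ligase of the Prp19 complex, was at -1.17 on A2, against -0.00 to 0.38 on the others. Prpf38b was at -0.85 on B2, against 0.22 to 0.49 on the others. Srsf10 was at -1.14 on B2, against -0.32 to -0.14 on the others. The odd array was B2 in 2 cases, A2 in 1 and B1 in 1, and none of the 4 genes was called in either direction.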

How the results depend on the processing

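The features called between the cell lines numbered 332, and 128 after equal scaling of the arrays, 193 after quantile normalization, 149 where 1 value in each preparation was enough (11817 tested), 548 at a threshold of 0.1, 544 with each probe as its own feature, 564 with only probes measured in both dyes of both preparations (an alternative added after the data were seen), and 198 to 498 when 1 array was left out. The fit with 5 arrays and a dye term counts arrays of the same preparation as replicates. Splicing genes called numbered 3, all higher. With 5 arrays and a dye term there were 5 (1 lower; Hnrnpab, Lsm8 and Lsm14a gained a call and Hnrnpc lost it), after equal scaling or quantile normalization 1 (1 higher), with 1 value in each preparation 0 of 51 (0 higher), at a threshold of 0.1 7 (5 higher, 2 lower), with each probe alone or only probes measured in both dyes 5 (2 lower), and without 1 array 1 to 4, all higher (0 lower). At the 0.05 threshold, Lsm8 passed with 5 arrays, without A1, with probes measured in both dyes and with each probe alone (adjusted p 0.0220 to 0.224 over its alternatives), Lsm14a in all of these except the one that left out A1 (0.0292 to 0.398), Hnrnpl in the last 2 (0.0313 to 0.442) and Hnrnpab with 5 arrays (0.0417). Over 21 named genes and 16 alternatives, 313 of 335 values stayed on the same side of the threshold. A further 13 lost a call, 9 gained one and 0 called values reversed. At the threshold of 0.1 the fit is the same, so no call could be lost or reversed there. Of 18 uncalled genes 6 changed sign somewhere, and values that changed sign without a call are counted among the 313. Dye effects numbered 29, and 7 after scaling or 2 to 258 without 1 array (0 or 1 among splicing genes). Preparation differences numbered 1, and 1 to 33 without 1 array.

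The Lsm median (0.18) was -0.24 with 1 value in each preparation, -0.31 with probes alone or measured in both dyes, -0.16 over all measured members and -0.37 to 0.15 without 1 array. The Srsf median (-0.30) was -0.13 with 1 value in each preparation or with probes alone, -0.014 over all measured members and -0.48 to -0.076 without 1 array. The Sf3a/Sf3b median (0.12) was 0.029 with probes alone and -0.024 to 0.19 without 1 array. The cause of these shifts was not tested. The Snrp median was 0.19 to 0.55 over all 18 alternatives. The threshold of 0.1 and the robust variance estimate are among these 18 and leave every median as it was. Arrays held values for 26.6% (A1) to 86.4% (B1) of probes, which limits which genes could be tested. Each array holds both cell lines, so each ratio is already a paired difference, and these were tested against 0 as 1 group.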
